A study of Mus musculus with 8 samples.

Results

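The expression of 32 cell cycle genes was followed in the epidermis of mouse embryos with a knockout of Noc2l targeted to keratinocytes. They were taken from a fixed list of gene symbols, 12 with roles in DNA replication or the entry into it and 20 with roles in mitosis, out of 23146 genes in the deposited counts (for a gene with several transcripts, the one with the largest total), and all 32 passed the filter on low counts that left 16342 genes for testing. Epidermis was taken off the dermis of embryos at stages E15.5 and E17.5, in embryonic days, and RNA-seq was made from 2 libraries of each of 4 groups. Control embryos carried floxed alleles of Noc2l (called Nir in the labels). Knockout embryos carried the floxed alleles together with Krt14-Cre, a transgene whose Cre recombinase is driven by keratin 14 regulatory sequence and so acts in keratinocytes, while cells that never make keratin 14 keep Noc2l. Whether the controls carried Cre, and whether a library came from 1 embryo or a pool, is not given in the sources used here. The series title gives the aim, the role of Noc2l in developing epidermis. Noc2l encodes a nucleolar protein that takes part in making ribosomes, binds p53 and inhibits histone acetylation.

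The cell cycle is run by waves of transcription. In G1, cyclin D and cyclin E kinases release E2F factors from the RB proteins, and E2F factors then switch on genes that license and copy DNA, such as those of the MCM helicase. In G2, the factors B-MYB and FOXM1, bound with the MuvB complex at CHR elements and with NF-Y at CCAAT boxes, switch on genes of mitosis, among them those of cyclin B, its kinase CDK1 and the proteins of the spindle and kinetochore. In embryonic epidermis most dividing cells lie in the basal layer and in growing hair follicles, while cells of the layers above leave the cycle as they mature. In RNA from whole tissue, fewer dividing cells and less RNA per dividing cell cannot be told apart.

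Each library held 25226357 to 28895657 counts on named genes, with only the 1 transcript kept for each gene counted. Listed genes had from 339 counts (Ccnb1 in 1 library) to 18138 counts (Mki67 in another). Levels are edgeR's CPM, counts put on a common library total after scaling by TMM factors, and fold changes and adjusted p-values come from edgeR's quasi-likelihood test over all 16342 genes, with a threshold of 0.05. Noc2l itself stood at 107 and 97.4 CPM in control and 95.6 and 91.6 CPM in knockout libraries at E15.5, and at 106 and 121 CPM against 85.4 and 86.9 CPM at E17.5. It did not pass the test at E15.5 (-0.13 ± 0.10 on the log2 scale, SE, adjusted p = 0.33) and fell at E17.5 (-0.39 ± 0.10, adjusted p = 0.0062). The count covers the whole transcript and the floxed exons are not named, so this value does not check the labels. The basal keratins Krt14 and Krt5 were present in every library, at 403 to 1651 CPM and 423 to 4337 CPM, and were lowest in knockout libraries. Replicates of a group had correlations of 0.986 to 0.989 in log2 CPM across genes. Of the 32 genes, 10 overlap another annotated gene, namely Mcm7, E2f1, Top2a, Ccna2, Aurka, Kif11, Kif20a, Tpx2, Cdc20 and Foxm1; whether the counting used strand is not given in the sources used here, so reads from the partner cannot be told apart.

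Of the 32 genes, 26 (all but Ccna2, Foxm1, Tpx2, Mcm4, Kif20a and Aurkb) had a promoter window in the RefSeq table (GRCm38.p6), which spans 250 bases before to 50 after an annotated start. The stretches below end 1 base before the start and are printed because CHR elements and E2F sites are spread unevenly over the mitotic and the replication genes. Capitals mark a CCAAT box, a CHR element with the letters TTTGAA, or an E2F site (TTTGGCGC, TTTGCCGC, TTTCGCGC or TTTCCCGC), each searched on both strands, so that ATTGG is a CCAAT box on the other strand and TTCAAA a CHR element there. The first 4 are mitotic genes and the last 2 replication genes.
Cdk1 (chr10:69352913-69353032, minus strand): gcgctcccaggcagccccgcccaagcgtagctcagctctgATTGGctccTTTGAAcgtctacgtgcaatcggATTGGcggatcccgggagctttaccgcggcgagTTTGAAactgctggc
Top2a (chr11:99024190-99024299, minus strand): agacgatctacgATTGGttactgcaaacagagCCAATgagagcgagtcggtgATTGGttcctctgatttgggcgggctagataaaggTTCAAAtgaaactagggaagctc
Ube2c (chr2:164769819-164769928, plus strand): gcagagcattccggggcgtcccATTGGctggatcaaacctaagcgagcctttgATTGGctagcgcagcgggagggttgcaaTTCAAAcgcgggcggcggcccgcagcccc
Cdc20 (chr4:118437344-118437423, minus strand): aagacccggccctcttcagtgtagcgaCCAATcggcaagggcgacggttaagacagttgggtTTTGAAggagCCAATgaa
Mcm6 (chr1:128359706-128359825, minus strand): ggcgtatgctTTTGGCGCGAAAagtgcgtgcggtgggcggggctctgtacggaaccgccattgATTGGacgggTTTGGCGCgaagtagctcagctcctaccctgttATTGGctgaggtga
Mcm5 (chr8:75109339-75109508, plus strand): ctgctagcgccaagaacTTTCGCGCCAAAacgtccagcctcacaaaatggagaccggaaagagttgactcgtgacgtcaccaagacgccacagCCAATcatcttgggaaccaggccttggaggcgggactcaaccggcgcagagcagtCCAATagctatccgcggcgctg

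In these stretches Cdk1 has 2 CCAAT boxes and 2 CHR elements, Top2a 3 and 1, Ube2c 2 and 1, and Cdc20 2 and 1, with 0 E2F sites in all 4. The Mcm6 stretch has 2 CCAAT boxes, 0 CHR elements and 3 E2F sites, 2 of which overlap on opposite strands, and the Mcm5 stretch has 2 CCAAT boxes, 0 CHR elements and 2 overlapping E2F sites. Over the full windows, a CHR element was found in 11 of 15 windows of mitotic genes (73.3%) and in 1 of 12 windows of replication genes (8.33%), against 17.9% of all 32851 windows. An E2F site was found in 5 of 12 windows of replication genes (41.7%) and 1 of 15 of mitotic genes (6.67%), against 2.26% of all windows. That mitotic window is the one of Cdk1, with an E2F site at position -131 from the start. The site lies outside the 120 bases printed for Cdk1, whereas 170 bases are printed for Mcm5. CCAAT boxes were found in 14 of 15 mitotic windows (93.3%), 8 of 12 replication windows (66.7%) and 37.4% of all windows. The 12 replication windows come from 11 genes, since Mcm7 has 2. The windows of Ccne1, E2f1, Tyms and Birc5 held none of these letters, which says nothing about the factors at those promoters.

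**Figure D1:**
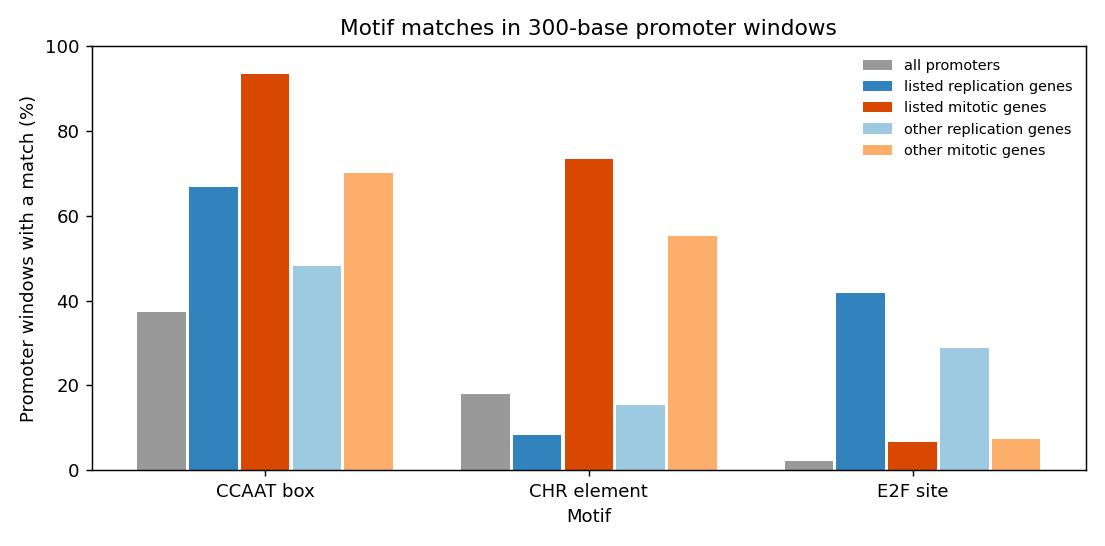
Share of 300-base promoter windows (%) with at least 1 match to each motif, for all promoters of the table, the listed replication and mitotic genes, and the other genes of both kinds. CHR elements stand at 73.3% in the listed mitotic genes against 17.9% of all windows, and E2F sites at 41.7% in the listed replication genes against 2.26%.

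At E15.5 most cell cycle genes were a little lower in knockout epidermis. Of the 32, 10 fell, 1 rose and 21 did not pass the test. Among all genes tested, 22.3% fell and 23.2% rose, so the count of listed genes that fell was not far above the background. The median log2 fold change was -0.27 over the 32 genes and -0.0047 over all genes tested. In 28 of the 32 genes both knockout libraries lay below both control libraries, against 37.3% of all genes tested, and in 2 genes, Ccne1 and E2f1, both lay above, against 37.1% of all genes tested. In the same libraries the summed level of dermal fibroblast markers was higher and that of basal keratinocyte markers lower, with the values given after E17.5.

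At E17.5 the whole list was lower except for the same pair. Of the 32, 30 fell, 0 rose at an adjusted or an unadjusted p under 0.05 (0 also by DESeq2 and limma-voom), and 2, Ccne1 and E2f1, did not pass. Among all genes tested 26.7% fell and 26.7% rose. The median was -0.64 over the 32 genes against -0.02 over all genes, and both knockout libraries lay below both control libraries in 30 genes, against 39.7% of all genes tested; the other 2 lay above, against 38.4%. Falls ranged from -0.41 for Mcm3 to -1.13 for Ccnb1. When library totals were the only scaling, the median of all genes was -0.23, and 65.6% of the called genes were among those that fell, against 49.96% with TMM; the number of fallen listed genes was 30 under that scaling too.

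**Figure D2:**
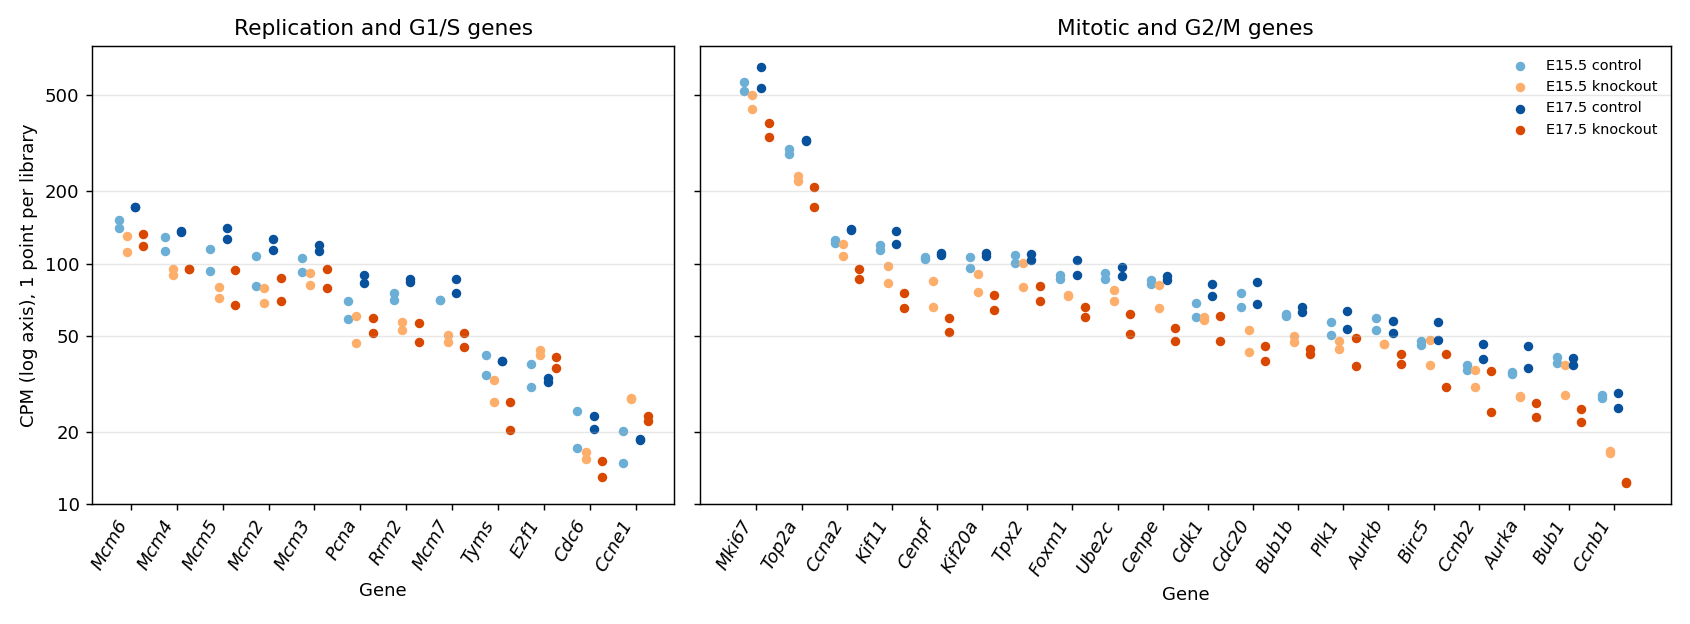
Level of each listed gene in CPM (log axis), with 1 point per library and colours for the 4 groups, replication genes at left and mitotic genes at right, each ordered by their level in E17.5 controls. In every gene except Ccne1 and E2f1 the E17.5 knockout libraries (dark orange) lie below the E17.5 control libraries (dark blue).

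Markers of cell types also moved in these libraries. Among all genes tested, 22.3% fell and 23.2% rose at E15.5, and 26.7% fell and 26.7% rose at E17.5. Of 12 basal keratinocyte markers, 11 fell at each stage and 0 and 1 rose, and their summed level went from 7692 to 8116 CPM in E15.5 controls to 2378 to 2382 CPM in E15.5 knockouts, and from 8310 to 8378 CPM to 1576 to 1604 CPM at E17.5. All 12 spinous and granular markers with counts fell at both stages, from sums of 94390 to 100100 CPM to 7717 to 7883 CPM at E15.5 and from 46220 to 60800 CPM to 1697 to 1787 CPM at E17.5. All 14 dermal fibroblast markers rose at E15.5 and 13 at E17.5, with sums of 37220 to 39190 CPM against 88480 to 109000 CPM at E15.5 and 32910 to 37920 CPM against 112100 to 118500 CPM at E17.5. Of 9 erythroid markers with counts, 7 and 6 rose, with sums of 4359 to 6212 CPM against 26450 to 44400 CPM and 1591 to 1964 CPM against 20350 to 23920 CPM. All 10 endothelial markers rose at both stages, from sums of 604 to 610 CPM to 991 to 994 CPM at E15.5 and from 542 to 565 CPM to 967 to 1000 CPM at E17.5, and of 10 myeloid markers with counts 10 and 9 rose, from sums of 339 to 348 CPM to 738 to 751 CPM and from 351 to 369 CPM to 1165 to 1298 CPM. No marker of these lists was at 0 in any library. The part of this shift in cell types in the values of the cell cycle genes was not tested.

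Genes of the MCM2-7 helicase, the ring that is loaded on origins and unwinds DNA, fell in 6 of 6 cases at E17.5 and in 3 of 6 at E15.5. Among all genes tested, 26.7% fell at E17.5 and 22.3% at E15.5. Mcm7 had 70.7 and 70.8 CPM in the control libraries and 50.5 and 47.2 CPM in the knockout libraries at E15.5, without overlap, and its log2 fold change was -0.53 ± 0.11 (SE, adjusted p = 0.002). At E17.5 it had 75.6 and 86.4 CPM in the control libraries and 45.1 and 51.5 CPM in the knockout libraries, a change of -0.75 ± 0.11 (SE, adjusted p = 0.00015). Mcm7 had the lowest adjusted p of the 12 replication genes at both stages.

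Mcm5, which loads with the other 5 subunits, had 115 and 93.1 CPM in the control libraries and 80.2 and 72.2 CPM in the knockout libraries at E15.5 (-0.45 ± 0.15 SE, adjusted p = 0.034). Its E17.5 levels were 126 and 140.2 CPM in the control libraries and 67.1 and 93.7 CPM in the knockout libraries (-0.73 ± 0.15 SE, adjusted p = 0.002). The groups did not overlap at either stage, but E17.5 knockout replicate 1 was well below replicate 2. Mcm4 was steadier, with 129 and 113 CPM in the control libraries and 95.1 and 89.5 CPM in the knockout libraries at E15.5 (-0.39 ± 0.10 SE, adjusted p = 0.006). At E17.5 Mcm4 had 136 and 135 CPM in the control libraries and 94.8 and 95.3 CPM in the knockout libraries (-0.52 ± 0.10 SE, adjusted p = 0.00085). The other 3 subunits fell at E17.5, Mcm2 by 0.62, Mcm3 by 0.41 and Mcm6 by 0.45 on the log2 scale. Their E15.5 values of -0.35, -0.19 and -0.27 did not pass, and neither did the differences between the stages (adjusted p = 0.58, 0.55 and 0.60). All 6 subunits were lower in both knockout libraries than in both control libraries at both stages. The same held for 37.3% of all genes tested at E15.5 and 39.7% at E17.5. The mean level of the 6 went from 113 and 98.3 CPM to 87.8 and 78.4 CPM at E15.5 and from 123 and 130 CPM to 79.1 and 92.6 CPM at E17.5.

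The other listed replication genes Rrm2, Tyms, Pcna and Cdc6 fell at E17.5, and Rrm2 was also called at E15.5. Rrm2, the regulated subunit of ribonucleotide reductase, had 75.5 and 70.4 CPM in the control libraries and 57.0 and 52.9 CPM in the knockout libraries at E15.5 (-0.41 ± 0.11 SE, adjusted p = 0.011). At E17.5 it had 84.1 and 86.6 CPM in the control libraries and 47.1 and 56.6 CPM in the knockout libraries (-0.72 ± 0.11 SE, adjusted p = 0.00022), a drop of 39.2%. Tyms, the thymidylate synthase, had 41.8 and 34.4 CPM in the control libraries and 26.6 and 32.9 CPM in the knockout libraries at E15.5 and did not pass (-0.36 ± 0.16 SE, adjusted p = 0.085). It fell at E17.5, with 39.3 and 39.4 CPM in the control libraries and 20.3 and 26.5 CPM in the knockout libraries (-0.75 ± 0.16 SE, adjusted p = 0.0019). The Tyms values are those of a non-coding RefSeq transcript, whose total of 7263 counts was just above the 7234 of the coding one. Pcna, the sliding clamp of the polymerases, overlapped between groups at E15.5 (-0.27 ± 0.14 SE, adjusted p = 0.15) and fell at E17.5 (-0.64 ± 0.14 SE, adjusted p = 0.0024). Cdc6, which helps load the helicase, was -0.39 ± 0.17 at E15.5 (adjusted p = 0.088) and fell by 0.64 at E17.5 (adjusted p = 0.0084).

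Ccne1 and E2f1, which act upstream of these genes at the start of S phase, were higher in each knockout library than in both control libraries of its stage. So were 37.1% of all genes tested at E15.5 and 38.4% at E17.5. Ccne1 encodes cyclin E1, the partner of CDK2 that starts replication. It had 20.2 and 14.9 CPM in the control libraries and 27.5 and 27.7 CPM in the knockout libraries at E15.5 and rose by 0.65 ± 0.14 (SE, adjusted p = 0.0034). At E17.5 Ccne1 had 18.6 and 18.7 CPM in the control libraries and 22.2 and 23.3 CPM in the knockout libraries, and the difference of 0.29 ± 0.14 did not pass (adjusted p = 0.12). E2f1, an activating E2F factor, had 38.2 and 30.8 CPM in the control libraries and 41.8 and 43.9 CPM in the knockout libraries at E15.5 (0.31 ± 0.12 SE, adjusted p = 0.059). At E17.5 E2f1 had 33.3 and 32.2 CPM in the control libraries and 36.8 and 40.9 CPM in the knockout libraries (0.24 ± 0.12 SE, adjusted p = 0.12). Neither E2f1 value passed, though the E15.5 value did under limma-voom (0.049), the stricter filter (0.046) and upper quartile factors (0.020) and without E15.5 control replicate 1 (0.023). The ratio of Ccne1 to the mean of the 6 MCM genes, both in CPM, was 0.144 to 0.178 in the 4 control libraries and 0.252 to 0.353 in the 4 knockout libraries, a description of values already given. The difference between the Ccne1 effects at E15.5 and E17.5 was -0.37 ± 0.20 (adjusted p = 0.40).

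Among the cyclins and the kinase that drive entry into mitosis, the estimate of Ccnb1 was the furthest below 0 at both stages. Ccnb1, cyclin B1, had 28.4 and 27.7 CPM in the control libraries and 16.4 and 16.7 CPM in the knockout libraries at E15.5 (-0.76 ± 0.12 SE, adjusted p = 0.00035). By E17.5 cyclin B1 had 25.2 and 28.9 CPM in the control libraries and 12.4 and 12.2 CPM in the knockout libraries (-1.13 ± 0.12 SE, adjusted p = 1.5e-05), a drop of 54.5%, and both changes are the furthest below 0 among the 32 genes at their stage. Its relative Ccnb2, cyclin B2, went from 40.3 and 46.4 to 24.1 and 35.6 CPM at E17.5 (-0.54 ± 0.17 SE, adjusted p = 0.019), with the knockout libraries far apart, and was -0.15 ± 0.17 at E15.5 (adjusted p = 0.50). Cdk1, the kinase both cyclins bind, was -0.12 ± 0.13 at E15.5 (adjusted p = 0.47) and fell by 0.52 at E17.5 (adjusted p = 0.0053). Ccna2, cyclin A2 of S phase and G2, was -0.12 ± 0.10 at E15.5 (adjusted p = 0.35) and -0.61 ± 0.10 at E17.5 (adjusted p = 0.00028). So at E15.5 Ccnb1 fell while the estimates for Ccnb2, Cdk1 and Ccna2 lay within -0.15 to -0.12; the differences between these genes were not tested.

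Among the listed mitotic genes, Top2a, Cenpf and Kif11 were called at both stages, as were Ccnb1, Cdc20 and Bub1b. Top2a, the topoisomerase that untangles sister chromatids, had 298 and 285 CPM in the control libraries and 220.3 and 232 CPM in the knockout libraries at E15.5 (-0.37 ± 0.11 SE, adjusted p = 0.02) and 326 and 324 CPM in the control libraries and 172 and 208 CPM in the knockout libraries at E17.5 (-0.77 ± 0.11 SE, adjusted p = 0.00014). Cenpf, a kinetochore protein, had 107 and 104 CPM in the control libraries and 66.0 and 84.4 CPM in the knockout libraries at E15.5 (-0.49 ± 0.12 SE, adjusted p = 0.0065) and 109 and 111 CPM in the control libraries and 51.8 and 59.2 CPM in the knockout libraries at E17.5 (-0.99 ± 0.12 SE, adjusted p = 4.4e-05). Kif11, the motor that parts the spindle poles, had 114 and 119 CPM in the control libraries and 83.3 and 97.5 CPM in the knockout libraries at E15.5 (-0.37 ± 0.12 SE, adjusted p = 0.023) and 137 and 120.1 CPM in the control libraries and 65.7 and 75.8 CPM in the knockout libraries at E17.5 (-0.86 ± 0.12 SE, adjusted p = 8.2e-05). None of these groups overlapped, and knockouts lay below controls without overlap in 37.3% of all genes tested at E15.5 and 39.7% at E17.5. Cenpe, the motor that moves chromosomes to the spindle equator, was not called at E15.5 (-0.19 ± 0.12 SE, adjusted p = 0.21). At E17.5 it had 88.8 and 85.2 CPM in the control libraries and 47.5 and 53.9 CPM in the knockout libraries (-0.78 ± 0.12 SE, adjusted p = 0.0002). Kif20a, a motor of cell division, and Tpx2, which starts spindle microtubules, fell at E17.5 (-0.66 ± 0.11 and -0.50 ± 0.12) and were -0.28 and -0.22 at E15.5, where neither passed.

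Of the checkpoint and exit genes, Cdc20 and Bub1b were called at both stages and Bub1 and Ube2c at E17.5. Cdc20, which activates the anaphase-promoting complex, had 75.3 and 66.2 CPM in the control libraries and 52.8 and 43.0 CPM in the knockout libraries at E15.5 (-0.56 ± 0.14 SE, adjusted p = 0.0071) and 67.8 and 84.1 CPM in the control libraries and 39.2 and 45.3 CPM in the knockout libraries at E17.5 (-0.85 ± 0.14 SE, adjusted p = 0.00041). Ube2c, the ubiquitin-conjugating enzyme of that complex, was -0.27 ± 0.11 at E15.5 (adjusted p = 0.078) and fell by 0.72 at E17.5 (adjusted p = 0.0003). Bub1b, the checkpoint protein BUBR1 that holds CDC20 back, had 61.5 and 60.5 CPM in the control libraries and 47.2 and 50.2 CPM in the knockout libraries at E15.5 (-0.33 ± 0.10 SE, adjusted p = 0.017). At E17.5 it had 63.0 and 66.2 CPM in the control libraries and 42.0 and 44.2 CPM in the knockout libraries (-0.58 ± 0.10 SE, adjusted p = 0.00038). The checkpoint kinase gene Bub1 fell at E17.5 (-0.75 ± 0.14, adjusted p = 0.0010).

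The mitotic kinases Aurka, Aurkb and Plk1, the Aurora B partner Birc5, and Foxm1, a transcription factor of this set, were all called at E17.5 and none at E15.5. Their E17.5 values were -0.73 ± 0.13, -0.44 ± 0.11, -0.43 ± 0.14, -0.53 ± 0.16 and -0.61 ± 0.10, and their E15.5 values ran from -0.32 for Aurka to -0.12 for Birc5. Mki67, the source of the Ki-67 proliferation antigen, had 566 and 520 CPM in the control libraries and 440 and 502 CPM in the knockout libraries at E15.5 (-0.21 ± 0.13 SE, adjusted p = 0.24). At E17.5 it had 657 and 538 CPM in the control libraries and 335 and 382 CPM in the knockout libraries (-0.74 ± 0.13 SE, adjusted p = 0.00073). Mki67 had the highest CPM of the 32 genes in all 8 libraries. Per kilobase of transcript, on the scale of CPM divided by length, the highest mean in E17.5 controls was 95.9 for Ube2c, followed by 62.3 for Top2a and 59.4 for Mki67, and the lowest was 4.76 for Cdc6.

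**Figure D3:**
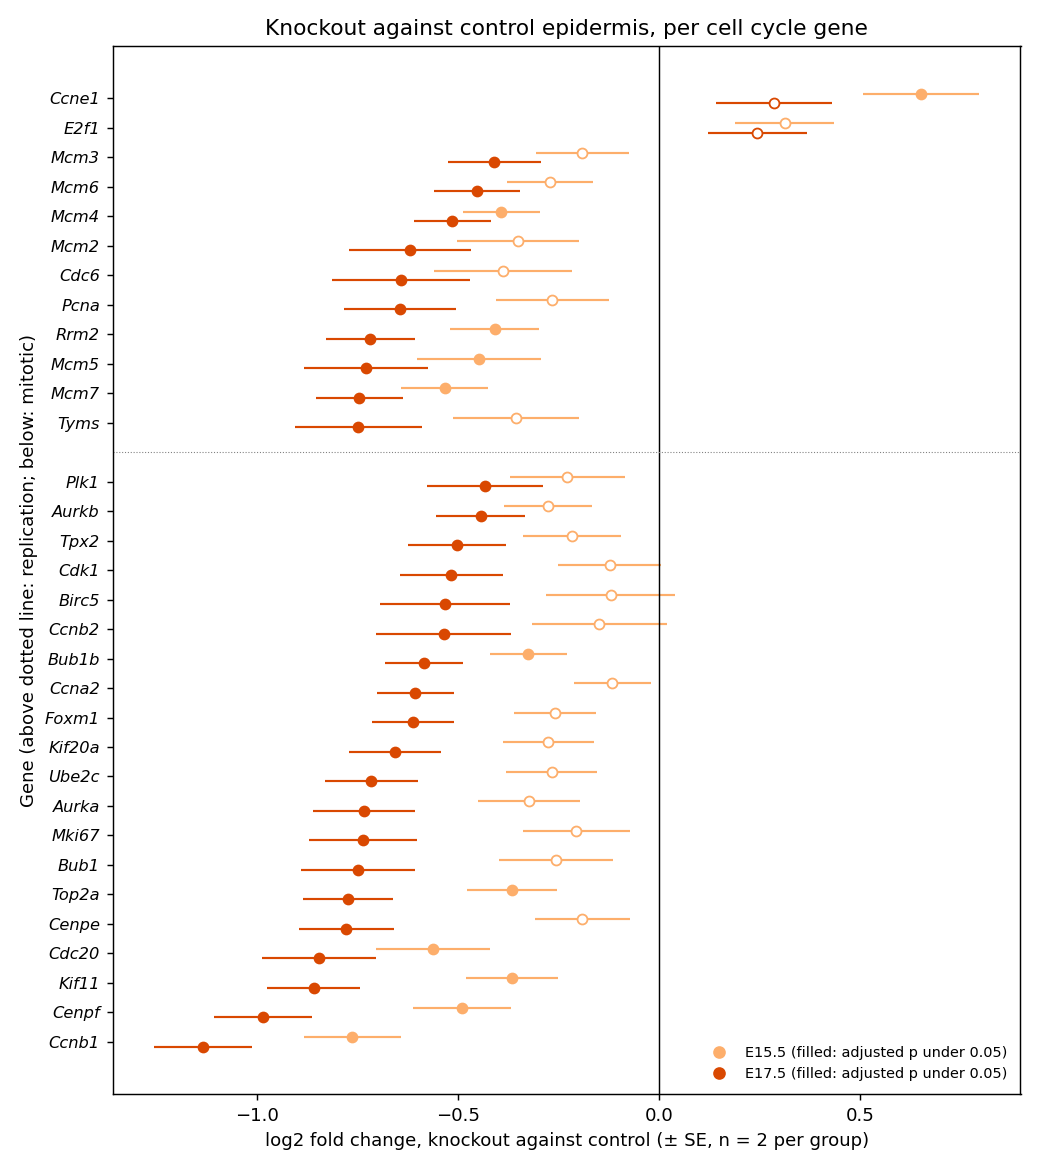
The log2 fold change of each listed gene, knockout against control, at E15.5 (light) and E17.5 (dark), with bars of 1 SE (n = 2 libraries per group) and filled points where the adjusted p is under 0.05. The 30 genes left of 0 at E17.5 are all filled, from -0.41 to -1.13, while Ccne1 and E2f1 lie to the right of 0 at both stages.

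Of the 11 calls at E15.5, those of Mcm7, Ccne1 and Ccnb1 held in all 18 alternatives, and 8 were lost in at least 1. The log2 fold changes of these 8 stayed below 0 in every alternative, for example at -0.47 to -0.32 for Rrm2, -0.48 to -0.29 for Mcm4 and -0.41 to -0.27 for Top2a, and each fit that leaves out a library has 1 library in its group, assumed to vary like the other groups. Without E15.5 control replicate 1 the calls of Mcm4 (adjusted p = 0.063), Mcm5 (0.25), Rrm2 (0.071), Top2a (0.10), Bub1b (0.075), Kif11 (0.056) and Cdc20 (0.062) were lost, 1 replication gene and 2 mitotic genes were left among the fallen, and the median of the replication genes moved from -0.35 to -0.17. Without E15.5 knockout replicate 2 the calls of Mcm4 (0.052), Mcm5 (0.16), Rrm2 (0.074), Top2a (0.056) and Cdc20 (0.067) were lost, and 1 replication and 7 mitotic genes fell. Without E15.5 control replicate 2 the calls of Top2a (0.053), Bub1b (0.058) and Kif11 (0.11) were lost, and 6 replication and 3 mitotic genes fell. Without E15.5 knockout replicate 1 those of Mcm5 (0.058), Top2a (0.11), Bub1b (0.10), Cenpf (0.068) and Kif11 (0.17) were lost, and 5 replication and 2 mitotic genes fell. Under upper quartile factors Mcm5 (0.086), Top2a (0.067), Bub1b (0.075) and Kif11 (0.068) did not pass.

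At E17.5, 23 of the 30 calls held in all 18 alternatives. Without E17.5 knockout replicate 1, the library with the lowest level of both sets, the calls of Mcm2 (adjusted p = 0.052), Mcm3 (0.11), Cdc6 (0.062), Ccnb2 (0.14), Cdk1 (0.056), Plk1 (0.19) and Birc5 (0.13) were lost, which left 7 replication and 16 mitotic genes. Ccnb2 then stood at -0.30, Plk1 at -0.27 and Birc5 at -0.35. Without E17.5 control replicate 2 the calls of Mcm3 (0.055), Ccnb2 (0.11), Plk1 (0.16) and Birc5 (0.11) were lost, and without E17.5 control replicate 1 that of Cdc6 (0.052).

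Replication and mitotic genes were then set side by side. At E15.5, 4 of 12 replication genes fell and 1 rose (median -0.35), and 6 of 20 mitotic genes fell and 0 rose (median -0.26). The 0 risen mitotic genes of edgeR were also 0 at an unadjusted p under 0.05, by DESeq2 and by limma-voom. Among all genes tested 22.3% fell and 23.2% rose at E15.5. The fallen shares of 33.3% and 30.0% were thus not far above the background. At E17.5, 10 of 12 replication genes fell (median -0.63) and 20 of 20 mitotic genes fell (median -0.69), against 26.7% of all genes tested. The mean log2 CPM of the 12 replication genes was 6.06 and 5.80 in E15.5 controls, 5.76 and 5.66 in E15.5 knockouts, 6.11 and 6.15 in E17.5 controls and 5.53 and 5.76 in E17.5 knockouts. The mean log2 CPM of the 20 mitotic genes was 6.35 and 6.27, 5.94 and 6.08, 6.36 and 6.46, and 5.61 and 5.84 in the same order. Both means were lower in each knockout library than in either control library of its stage. The replication mean minus the mitotic mean was -0.29 and -0.47 in E15.5 controls, -0.19 and -0.41 in E15.5 knockouts, -0.26 and -0.31 in E17.5 controls, and -0.07 and -0.07 in E17.5 knockouts. The E17.5 knockout libraries are thus the highest on that difference, but Ccne1 and E2f1 enter the replication mean with positive changes. Medians depend less on such a pair. They lay close together at E17.5 (-0.63 for replication and -0.69 for mitotic genes). At E15.5 the replication median was the lower (-0.35 against -0.26). The difference between the sets was not tested, since the genes were chosen with results of these data known.

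**Figure D4:**
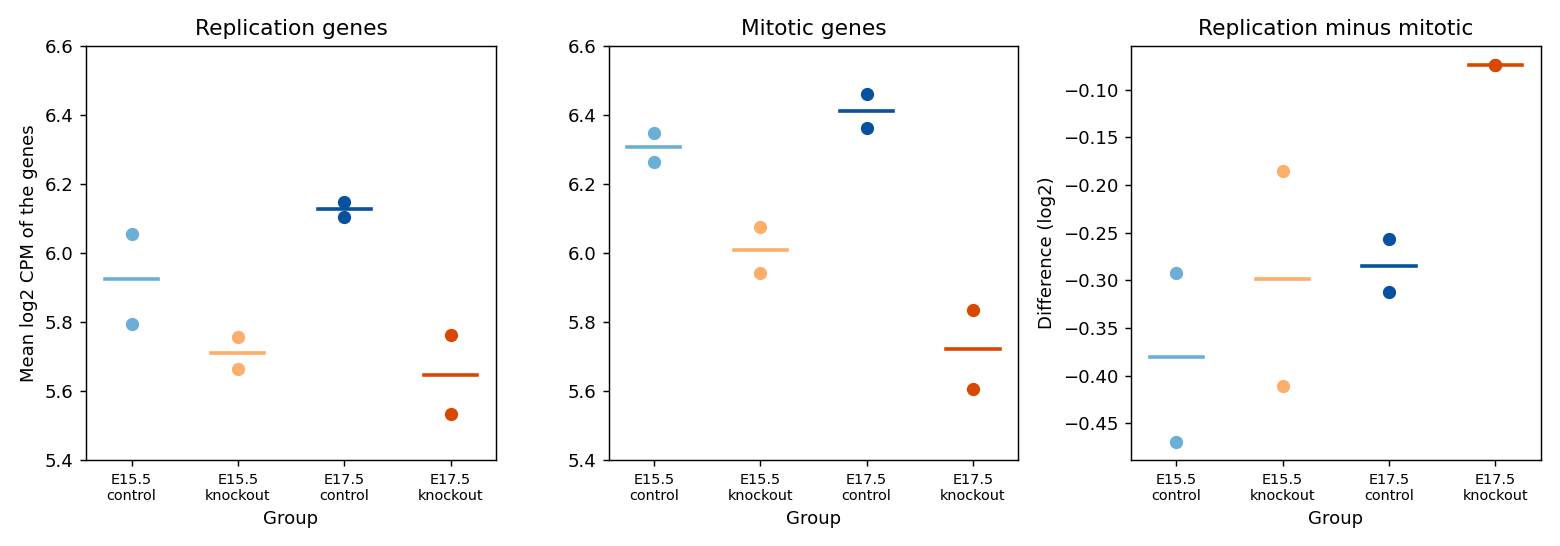
Mean log2 CPM of the 12 replication genes (left) and of the 20 mitotic genes (middle), and the difference between these means (right), with 1 point per library and a bar at the mean of each group of 2. The group means of both sets are lowest in E17.5 knockouts, whose libraries stand at 5.53 and 5.76 for replication and 5.61 and 5.84 for mitotic genes, and the difference there is -0.07 in both libraries. The replication mean includes Ccne1 and E2f1, whose log2 fold changes were above 0.

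Between the stages, the listed genes did not pass the test in control epidermis and a few mitotic genes fell in knockout epidermis. In controls, 0 of 32 rose and 0 fell from E15.5 to E17.5 (edgeR; 3 rose at an unadjusted p under 0.05, all of them replication genes, and 0 by DESeq2 and limma-voom), against 3.15% and 7.70% of all genes tested. The medians were 0.21 for replication and 0.12 for mitotic genes. With library totals as the only scaling 8 replication genes and 1 mitotic gene rose, the median of all genes was 0.19, and 33.9% of called genes fell against 71.0%. In knockouts, 6 of 20 mitotic genes fell from E15.5 to E17.5, against 6.91% of all genes tested (6.19% rose). They were Ccnb1 (-0.42 ± 0.12), Ccna2 (-0.33 ± 0.10), Bub1 (-0.51 ± 0.14), Cenpf (-0.44 ± 0.12), Cenpe (-0.53 ± 0.12) and Ube2c (-0.39 ± 0.12), named because they make up the count. Of the 12 replication genes, 0 rose or fell in knockouts, also at an unadjusted p under 0.05 and by DESeq2 and limma-voom, with a median of -0.0004. The count of 6 was 3 without E15.5 knockout replicate 1, 0 without E15.5 knockout replicate 2, 0 without E17.5 knockout replicate 1, 2 without E17.5 knockout replicate 2 and 1 without E15.5 control replicate 1 or 2, and it was 3 under upper quartile factors or with transcripts summed.

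The estimated knockout effect was lower at E17.5 than at E15.5 in all 32 genes, against 8033 of all 16342 genes tested. The 32 values come from the same 8 libraries, so they are not separate observations. In the test of that difference between the stages, 0 of the 32 genes passed. That difference had a median of -0.26 over replication and -0.40 over mitotic genes, with a range of -0.07 for E2f1 to -0.59 for Cenpe. edgeR called 0 genes (0 replication and 11 mitotic genes had an unadjusted p under 0.05, DESeq2 called 1 mitotic gene and limma-voom 0), against 1.88% of all genes tested that were higher and 2.47% that were lower. The smallest adjusted p-values were those of Ccna2 (0.072) and Cenpe (0.079). Without E15.5 knockout replicate 1, 2 mitotic genes passed, and with library totals only, 4 did.

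Other genes of the same processes, from lists chosen by function with earlier results of these data known, were counted the same way. Of 51 other replication genes, 15 fell and 1 rose at E15.5 (median -0.26), against 22.3% and 23.2% of all genes tested, and 40 fell and 1 rose at E17.5 (median -0.51), against 26.7% and 26.7%. The count that fell at E15.5 was thus near the background. The 15 became 5 and 12 without E15.5 control replicate 1 or 2, 8 and 6 without E15.5 knockout replicate 1 or 2 and 7 under upper quartile factors, and the 40 became 25 without E17.5 knockout replicate 1. Uhrf1, which brings DNA methylation to new strands, had 121 and 113 CPM in the control libraries and 64.7 and 66.1 CPM in the knockout libraries at E15.5 (-0.84 ± 0.09 SE, adjusted p = 2.2e-05) and 134 and 143 CPM in the control libraries and 62.4 and 63.8 CPM in the knockout libraries at E17.5 (-1.14 ± 0.09 SE, adjusted p = 1.5e-06). Its partner Dnmt1, the maintenance methyltransferase, fell by 0.51 and 0.52 at the 2 stages. Gmnn, geminin, which blocks a second round of licensing, was -0.70 ± 0.18 at E15.5 (adjusted p = 0.0069, and 0.065 without E15.5 knockout replicate 2). At E17.5 the clamp loader gene Rfc4 (-1.02 ± 0.14) and the helicase cofactor gene Gins1 (-1.26 ± 0.18) were among the fallen. Cdc7, the kinase that fires origins, was the only riser of this list, by 0.39 ± 0.12 at E15.5 (adjusted p = 0.025) and 0.42 ± 0.12 at E17.5 (adjusted p = 0.014). It did not pass at E15.5 without E15.5 control replicate 1 (0.15) or knockout replicate 2 (0.18), and at E17.5 without E17.5 control replicate 1 (0.057) or knockout replicate 2 (0.12) and with library totals only (0.22).

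Of 65 other mitotic genes with counts, 24 fell and 1 rose at E15.5 (median -0.27), against 22.3% and 23.2% of all genes tested, and 58 fell at E17.5 (median -0.59), against 26.7%. The 24 became 9 and 10 without E15.5 control replicate 1 or 2, 9 and 13 without E15.5 knockout replicate 1 or 2 and 10 under upper quartile factors. Ttk, the checkpoint kinase MPS1, had 39.6 and 39.1 CPM in the control libraries and 18.2 and 21.8 CPM in the knockout libraries at E15.5 (-0.98 ± 0.14 SE, adjusted p = 0.00022). Cdc25c, a phosphatase that activates CDK1, had 17.9 and 19.8 CPM in the control libraries and 8.92 and 10.3 CPM in the knockout libraries at E15.5 (-0.97 ± 0.14 SE, adjusted p = 0.00023) and was -1.32 ± 0.15 at E17.5. Its relative Cdc25b, the riser at E15.5, had 60.8 and 52.0 CPM in the control libraries and 99.99 and 74.4 CPM in the knockout libraries (0.63 ± 0.14 SE, adjusted p = 0.0031) and was 0.01 ± 0.14 at E17.5 (adjusted p = 0.94). Ect2, which sets up the division furrow, fell by 0.61 at E15.5. At E17.5 the checkpoint gene Mad2l1 (-0.91 ± 0.11) and the spindle motor gene Kif15 (-1.06 ± 0.13) were among those with the smallest adjusted p.

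Of 26 genes of cyclin D, RB, E2F and DREAM proteins, 7 fell and 1 rose at E15.5, against 22.3% and 23.2% of all genes tested, and 11 fell and 2 rose at E17.5, against 26.7% and 26.7% (medians -0.20 and -0.31). The count that fell at E15.5 was near the background. The 7 became 4 without E15.5 control replicate 1 or knockout replicate 1, and the 11 became 20 with library totals only. Mycn, a growth-promoting MYC factor, had 23.6 and 17.8 CPM in the control libraries and 4.55 and 5.35 CPM in the knockout libraries at E15.5 (-2.06 ± 0.17 SE, adjusted p = 3.4e-06) and 35.7 and 36.7 CPM in the control libraries and 3.32 and 3.99 CPM in the knockout libraries at E17.5 (-3.31 ± 0.18 SE, adjusted p = 6.4e-08). Of the D cyclins, Ccnd3 and Ccnd2 went opposite ways at E17.5. Ccnd3 rose by 0.52 ± 0.10 and 0.77 ± 0.10 at the 2 stages (adjusted p = 0.00091 and 4.2e-05), with 176 and 176 CPM in the control libraries and 305 and 296 CPM in the knockout libraries at E17.5. Ccnd2 fell by 0.86 at E17.5 (adjusted p = 0.00013), and Cdk4, the kinase of D cyclins, fell by 0.44 and 0.60. Lin9, a MuvB subunit, was -1.02 ± 0.15 at E15.5 and -0.75 ± 0.16 at E17.5, and the repressor E2f8 was -0.60 ± 0.13 at E15.5. The repressor E2f6 rose at E17.5 (0.36 ± 0.12, adjusted p = 0.026), a call lost without E17.5 control replicate 2 (0.17), without E17.5 knockout replicate 1 (0.15) or 2 (0.077) and with library totals only (0.34).

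Of 17 CDK inhibitors and checkpoint kinases, 3 rose and 6 fell at E15.5, against 23.2% and 22.3% of all genes tested, and 2 rose and 8 fell at E17.5, against 26.7% and 26.7%. The counts that rose were below the background, and the 3 that rose at E15.5 became 1 without E15.5 control replicate 2. Cdkn1c, the CDK inhibitor p57, had 655 and 602 CPM in the control libraries and 1333 and 1221 CPM in the knockout libraries at E15.5 (1.02 ± 0.12 SE, adjusted p = 3.4e-05) and 537 and 498 CPM in the control libraries and 1225 and 1173 CPM in the knockout libraries at E17.5 (1.21 ± 0.12 SE, adjusted p = 6.9e-06). Ccng1, cyclin G1, a p53 target, rose by 0.71 and 0.85 (adjusted p = 0.0054 and 0.0014), and at E15.5 it did not pass without E15.5 control replicate 2 (0.066). Cdkn1a, the inhibitor p21 and the best known p53 target of the cycle, did not pass at either stage (0.24 ± 0.14 and -0.10 ± 0.14), and is named after its values were seen. The third riser at E15.5 was Cdkn2a, with 0.377 and 0.0384 CPM in control and 1.59 and 0.528 CPM in knockout libraries (2.31 ± 0.80 SE, adjusted p = 0.035), and it no longer passed without E15.5 control replicate 2 (0.20) or knockout replicate 1 (0.33). Of the damage checkpoint kinase genes, Chek2 fell by 0.70 and 0.93 and Chek1 by 0.51 and 0.94. Atm and Atr, also on this list, were not picked by the rule for naming genes. Wee1, which holds CDK1 inactive, fell by 0.63 and 0.36. Chek1 did not pass at E15.5 without E15.5 control replicate 1 (0.099) or 2 (0.057) or knockout replicate 1 (0.17) or under upper quartile factors (0.052), nor the E17.5 call of Wee1 without E17.5 control replicate 1 (0.051) or knockout replicate 2 (0.054). Gadd45a and Cdkn2b changed at 1 stage each, Gadd45a by -1.34 ± 0.17 at E15.5 and Cdkn2b by -2.19 ± 0.27 at E17.5.

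**Figure D5:**
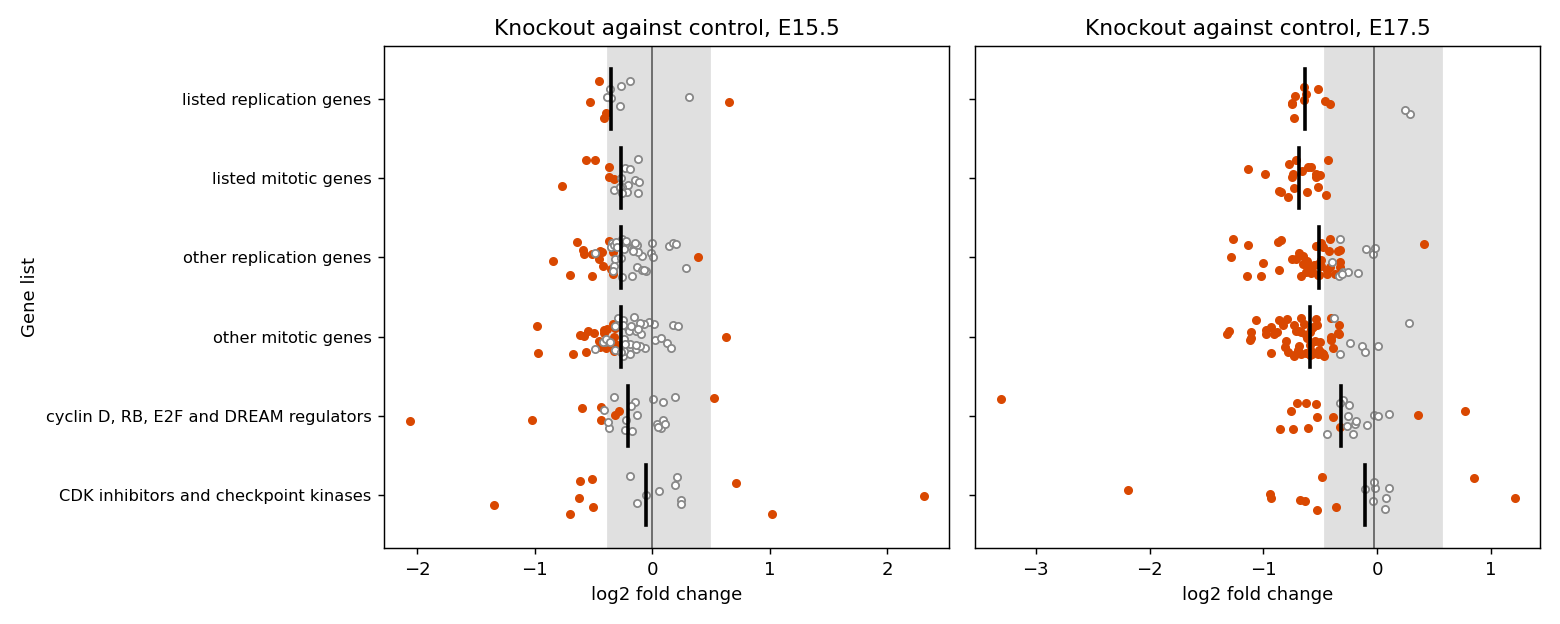
The log2 fold change of each gene, knockout against control, in 6 lists of cell cycle genes at E15.5 (left) and E17.5 (right), with filled points where the adjusted p is under 0.05 and a bar at the median of each list. The grey band spans the quartiles of all genes tested and the grey line their median; the replication and mitotic medians at E17.5, from -0.51 to -0.69, lie below the lower quartile of -0.46.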

How the data were processed

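RNA-seq was made from 8 libraries of mouse embryonic epidermis, 2 in each of 4 groups. Per the series design text and the submitters' processing notes, the authors aligned reads to mm10 with TopHat2 (version 2), counted them with HOMER and tested genes with edgeR; for strand use, reads that map to several places and the HOMER version, the sources used here say nothing. The deposited values are raw read counts per RefSeq transcript, not normalized by the authors. Of 30521 transcripts, 29908 were named from RefSeq (GRCm38.p6) and 182 from GENCODE, and 431 without a name, with 1.43% to 2.68% of a library's counts, were left out. A gene with several transcripts was represented by the one with the largest total, as for 6 of the 32 genes. For Tyms, and for E2f6 of the other lists, that transcript was a non-coding RefSeq entry, with 50.1% of the gene's summed transcript counts in each case. The joined tables hold 8 columns of values that name no sample and were not used.

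From these counts, edgeR 4.0.16 (R 4.3.3; TMM factors, filterByExpr, glmQLFit and glmQLFTest, 1 mean per group over all 8 libraries) tested 16342 genes with Benjamini-Hochberg adjustment at 0.05. Each standard error was obtained from the test's F as |log2 fold change|/√F. Alternatives used DESeq2 1.42.0, limma-voom (limma 3.58.1), other scalings, filters and transcript sums, the replicate number as a block, and each library left out. In counts simulated for the E15.5 comparison on 16097 genes, 31% of genes changed by 0.5 on the log2 scale and 92% of those changed by 1 were recovered, with 9 false calls. Only 100 genes were changed by each amount, whereas 3792 rose and 3639 fell in the real E15.5 test. With so few changed genes the adjusted threshold is stricter, so these shares do not give the recovery in the real data. The labels do not say whether replicates are separate embryos, so p-values measure only the spread between these libraries, which may be technical. No permutation test is given, since its smallest exact two-sided p is 0.333 at this size.

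The listed genes and all gene lists were chosen with earlier results of these data known. Values per library are given for the 5 genes of each set with the smallest adjusted p in each knockout comparison and for others needed to account for the list; from each other list, up to 3 called genes in each direction and comparison. Kif14, Flg, Ahsp and Cd68 were not analysed here.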

Additional observations from a re-analysis of the deposited data

Results flagged for a closer look

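Among all genes of the cell cycle lists, 5 outside the 32 had a knockout effect that differed between E15.5 and E17.5 in edgeR's test of the difference itself. Of all genes tested, 1.88% were higher and 2.47% lower in that test, so a count of 5 among 51, 65, 26 and 17 genes of the other lists is not above the background. Psrc1, a spindle microtubule protein, differed by -1.52 ± 0.25 (SE, adjusted p = 0.0059), from 0.22 at E15.5 to -1.30 at E17.5. Cdkn2b, the CDK4 and CDK6 inhibitor p15, differed by -2.39 ± 0.36 (adjusted p = 0.0036), from 0.21 to -2.19. Gadd45a, a growth arrest and DNA damage gene, differed the other way, by 1.32 ± 0.23 (adjusted p = 0.0079), from -1.34 to -0.02. These 3 calls held without each library in turn.

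Mycn differed by -1.24 ± 0.25 (adjusted p = 0.016), but not without E15.5 control replicate 2 (0.057), E15.5 knockout replicate 2 (0.070) or E17.5 knockout replicate 1 (0.066). Ccne2, cyclin E2, differed by -0.80 ± 0.20 (adjusted p = 0.043), from 0.29 at E15.5 to -0.52 at E17.5, and the call was lost in 7 of 8 fits with a library left out, with adjusted p-values from 0.053 to 0.15.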

How the results depend on the processing

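With the replicate number as a block, 7 replication and 10 mitotic genes fell at E15.5. The labels do not say whether the numbers pair the libraries. Over all genes tested, deviations of same-numbered libraries from their group means correlated by 0.0425 at E15.5 and -0.0698 at E17.5. Such a correlation over all genes cannot show whether they are paired. The block gave 524 risen genes and 1 fallen mitotic gene for the difference between stages. At E15.5, 2 replication genes rose under limma-voom, the stricter filter and upper quartile factors, and 3 mitotic genes fell under upper quartile factors. With library totals only, the E17.5 medians were -0.84 (replication) and -0.90 (mitotic); the difference between stages had 142 risen and 655 fallen genes, 4 of them mitotic; the control stages had 1486 risen and 762 fallen genes, 8 risen replication genes, 1 risen mitotic gene and medians of 0.40 and 0.31. DESeq2 gave 517 risen genes and 1 fallen mitotic gene for the difference. Upper quartile factors gave 1 risen replication gene between control stages, and upper quartile factors and transcript sums 3 fallen mitotic genes between knockout stages, where the main count is 6. The cause was not tested.

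With each library left out, E15.5 had 1 to 2 risen and 1 to 6 fallen replication genes (medians -0.47 to -0.17) and 2 to 8 fallen mitotic genes; E17.5 had 7 to 10 and 16 to 20 fallen (medians -0.78 to -0.53 and -0.85 to -0.59). The difference had 122 to 353 risen and 255 to 392 fallen genes, 0 to 2 of them mitotic. Control stages had 176 to 521 risen and 490 to 1255 fallen genes and 0 to 1 risen replication genes (medians 0.15 to 0.31, mitotic 0.05 to 0.18). Knockout stages had 451 to 1075 risen and 709 to 1181 fallen genes and 0 to 5 fallen mitotic genes (medians -0.40 to -0.16, replication -0.158 to 0.0561). Birc5 at E15.5 ranged from -0.31 (without E15.5 knockout replicate 2) to a reversed 0.0365 (adjusted p = 0.90, without E15.5 knockout replicate 1). Cdkn1a at E17.5, not called, ranged from -0.20 (without E17.5 control replicate 2) to 0.0025 (adjusted p = 0.99, without E17.5 control replicate 1). No knockout direction of the 32 genes changed under another scaling. With 2 libraries per group, changes of 0.5 on the log2 scale were often missed in simulated counts. Far fewer genes changed there than in the real data, so the share missed in the real data is not known.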
